A study of Drosophila melanogaster with 2 samples.

Results

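Intergenic peaks away from promoters were taken from chromatin immunoprecipitation sequencing of Single-minded (Sim), a transcription factor, in whole Drosophila melanogaster embryos. A peak of the authors' pooled optimal list was counted as a member when its summit lay more than 500 bp from every protein-coding transcription start site (TSS) and outside every annotated gene, with pseudogenes and transposable elements ignored. This gave 447 of the 2682 optimal peaks (16.7%). Of the remaining peaks, 1080 had a summit within 500 bp of a coding TSS (promoter peaks), 1011 lay in introns and 144 in exons. The series held 1 group of 2 samples, biological replicates 1 and 2, both from transgenic flies of the sim-GFP strain that expressed Sim fused to eGFP. Embryos covered 0 to 24 h of age, no treatment was given in the labels, and immunoprecipitation used an anti-GFP antibody, although the antibody entry reads sim. The sources used here do not give the promoter that drives the fusion or the number of independent lines. Whole embryos mix midline cells with all other cell types, so a peak cannot be assigned to a cell type. A control experiment is named in the labels and was not analysed here.

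Sim is a bHLH-PAS protein that specifies the midline cells of the Drosophila ventral nerve cord. It binds DNA as a dimer with Tango at the CNS midline element, whose core is ACGTG. Enhancers of developmental genes in the fly commonly lie in introns or between genes, at a distance from the promoter they act on. Ventral veinless and Dichaete, a POU-domain factor and a Sox factor, are known to act with Sim in midline cells.

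Summit sequences of 10 members are shown because they carry the points of the sequence results, namely 3 members with the midline element core, 4 with the 6-mer AGTGTA, and 3 of high signal or near a midline gene with neither. Each is the 101 bp centred on the summit, plus strand, 5′ to 3′, read from the RefSeq copy of the dm6 assembly. Capitals mark every match, on either strand, to AGTGTA or to any of the 20 patterns searched, which are spelled out with their results. The member nearest the TSS of eEF1gamma lay at chr3R:29214388-29214488, that of DNAlig3 at chr3R:12403095-12403195 and that of D at chr3L:14174440-14174540, and these 3 held the core. The members nearest CG7560 at chr3L:11416953-11417053, oc at chrX:8627298-8627398, CheA75a at chr3L:18235965-18236065 and CG5194 at chr3L:9011916-9012016 held AGTGTA. The members nearest CG31668 at chr2L:2202355-2202455, tara at chr3R:16222467-16222567 and vvl at chr3L:6823924-6824024 held none of these words. All of these windows lay between annotated genes.
eEF1gamma: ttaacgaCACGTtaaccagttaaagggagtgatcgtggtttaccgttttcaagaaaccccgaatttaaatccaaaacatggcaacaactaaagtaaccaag
DNAlig3: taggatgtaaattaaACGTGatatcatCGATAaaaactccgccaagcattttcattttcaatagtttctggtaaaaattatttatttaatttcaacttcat
D: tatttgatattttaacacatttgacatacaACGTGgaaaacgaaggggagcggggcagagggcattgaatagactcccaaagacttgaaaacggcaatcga
CG7560: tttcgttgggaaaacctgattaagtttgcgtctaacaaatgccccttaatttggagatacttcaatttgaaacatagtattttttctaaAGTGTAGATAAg
oc: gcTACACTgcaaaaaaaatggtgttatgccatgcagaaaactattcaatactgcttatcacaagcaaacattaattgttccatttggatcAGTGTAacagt
CheA75a: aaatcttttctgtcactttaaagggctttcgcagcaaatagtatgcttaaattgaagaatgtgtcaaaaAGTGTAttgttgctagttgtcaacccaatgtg
CG5194: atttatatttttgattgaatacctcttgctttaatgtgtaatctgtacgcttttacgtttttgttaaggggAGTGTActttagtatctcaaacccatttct
CG31668: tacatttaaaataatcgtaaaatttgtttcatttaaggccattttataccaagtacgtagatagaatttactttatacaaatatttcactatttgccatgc
tara: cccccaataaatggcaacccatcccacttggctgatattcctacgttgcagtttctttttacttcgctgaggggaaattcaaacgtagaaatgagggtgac
vvl: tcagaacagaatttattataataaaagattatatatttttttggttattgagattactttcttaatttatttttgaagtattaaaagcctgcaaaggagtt

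The strongest members had high values in both replicates. The deposited signal value is the strength given to each peak by the authors' peak caller, and the value of each replicate was read from its ranked peak list, which has a scale of its own. The strongest member had a signal value of 609.6, with 257 in replicate 1 and 349 in replicate 2, and its summit lay 11922 bp from the TSS of CG13323, between Su(z)2 and CG13323 on 2R. The second lay 4227 bp from the TSS of Psc, a Polycomb group gene, and had a signal value of 506, with 187 in replicate 1 and 322 in replicate 2. The third lay 5734 bp from eEF1gamma, which encodes a subunit of a translation elongation factor, at 467, with 172 and 289. All 3 peaks overlapped a peak in each replicate's thresholded list. Members were ordered by signal in the pooled list, which rests on both replicates. High values in each replicate are therefore not separate evidence that the replicates agree.

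The fifth to seventh strongest members lay near RYBP, tara and CycB. A member 7667 bp from RYBP, which encodes a partner of Polycomb repressive complexes, had a signal value of 397, with 209 in replicate 1 and 194 in replicate 2. Near tara, whose product is linked to trithorax group function, a member 3134 bp away reached 376, with 148 and 229. A member 3327 bp from CycB, the cyclin B gene, reached 375, with 165 and 207. As deposited, the value of replicate 1 exceeded that of replicate 2 for RYBP alone among these 3, but the replicate lists may differ in scale.

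The member 3761 bp from CG31668 had 416, and the next after CycB were those near RasGAP1 (324), CG43131 (306), DNAlig3 (292) and slp2 (281). The slp2 member lay in the 9.74 kb gap between the forkhead segmentation genes slp1 and slp2, 4314 bp from the slp2 TSS, with 147 in replicate 1 and 135 in replicate 2. The other genes nearest to the 25 strongest members were CG3149, CG13896, sp3, CG13321, CG5103, CG43245, foxo, CG32986, jp, CG7560 (with a pair of members), CG5953, CheA75a and Boot, at signal values from 259 down to 189. The member near foxo, a forkhead factor of insulin signalling, had 206, with 60.05 in replicate 1 and 143 in replicate 2. Every one of these 25 members overlapped both replicates' lists. None of the 25 had a gene of the midline list nearest.

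Members ranged widely in strength. The signal value had a median of 73.1 and quartiles of 59.5 and 103, with a lowest value of 2.04. Among the 112 strongest members 86.6% overlapped both replicate lists, compared with 19.6% in the next 112, 0.893% in the 112 after those and 2.70% in the weakest 111. Over all members, 123 (27.5%) overlapped both lists, 35 replicate 1 alone, 131 replicate 2 alone and 158 (35.3%) neither. The authors' conservative list overlapped 356 members (79.6%). The replicate lists themselves held 164 and 280 intergenic peaks, 15.3% of the 1071 peaks of replicate 1 and 16.7% of the 1676 of replicate 2. Read depth is unknown, so the difference in length between the lists cannot be set against it.

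**Figure D1:**
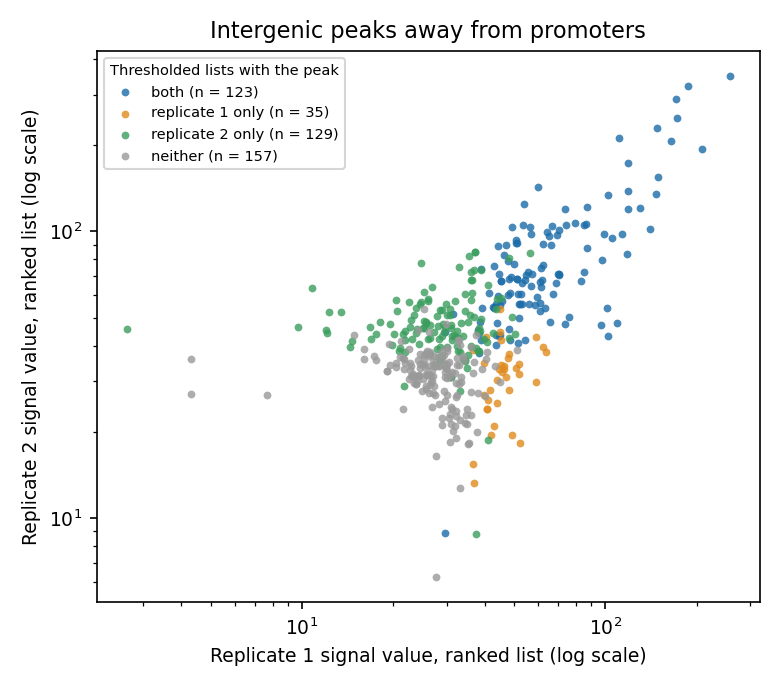
Signal value of each intergenic member in the ranked list of replicate 1 (x axis) and of replicate 2 (y axis), both on log scales in the authors' units, coloured by which thresholded lists overlapped the member. The 444 members with a value in both are drawn, and members in both lists lie toward the upper right.

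Replicates ranked the members alike only in part. Spearman's rho between the replicates' ranked signal was 0.477 over the 444 members with both values, and 0.494 over 997 intronic peaks, as a description of sites that share the pooled peak calls. The share overlapped in both replicate lists was 27.5% for members and 28.7% for intronic peaks, a difference of −1.17 percentage points (95% interval −6.04 to 3.93, two-sided Fisher's exact test, adjusted p = 0.989 over 6 tests). Against promoter peaks, at 34.6%, it was lower by a difference of −7.11 points (−11.99 to −1.98, Fisher's exact test, adjusted p = 0.0416). Signal above the median of all optimal peaks was found in 48.5% of members, 48.6% of intronic peaks (adjusted p = 1) and 53.1% of promoter peaks (difference −4.51 points, −9.98 to 0.994, adjusted p = 0.230, both by Fisher's exact test). These intervals cover counting error over peaks, and neighbouring peaks are not independent.

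Most members, 333 of 447 (74.5%), lay more than 2 kb from any coding TSS. The distance from summit to the nearest coding TSS ranged from 524 to 51488 bp with a median of 4842 bp. Beyond 10 kb lay 127 members (28.4%) and beyond 20 kb lay 27 (6.04%). Just inside the 500 bp limit were members near CG42808 at 524 bp with a signal value of 69.3, and near CAHbeta and sr, both at 541 bp, with 61.8 and 54.6. Just outside were peaks near Der-1 at 499 bp with 53.2, CG10479 at 485 bp with 223 and CG17896 at 484 bp with 126. The nearest gene edge of any kind was a 3' end for 210 members and a 5' end for 237. Signal value and distance to the TSS were nearly unrelated across the 447 sites (Spearman's rho 0.0307, a description of sites in 1 list).

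Midline genes vvl, oc and D were nearest to 6 members. A member is described here by the coding gene with the closest TSS, which gives its place and does not show that the gene is a target. Over the whole annotation, 317 of 13945 protein-coding genes (2.27%) had the TSS nearest to a member, and 1833 (13.1%) the TSS nearest to any optimal peak. In the list of 15 midline genes these 3 (20%) were nearest to a member, and 9 were nearest to any peak. Genes differ in how much intergenic sequence is nearest to them, so members per Mb of the sequence assigned to each list are given beside the counts. For the midline list this was 35.2 per Mb, against 11.99 over all intergenic sequence away from promoters.

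Ventral veinless (vvl) had 3 members in the 70.5 kb gap downstream of it. The strongest, 33816 bp from the TSS, had a signal value of 159, with 64.1 in replicate 1 and 99.3 in replicate 2, and overlapped both lists. The others had 89.1 (48.1 and 42.6) and 77.6 (26.5 and 47.1), at 26945 and 26278 bp, and overlapped the replicate 2 list alone. Thus 1 of the 3 sites was called in each replicate.

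Near oc, a head and midline homeobox gene also known as orthodenticle, a member 15828 bp away had 84.7, with 45.5 in replicate 1 and 41.7 in replicate 2, and a further one 6047 bp away had 70.9, with 29.98 and 39.6. The D (Dichaete) member lay 3047 bp from the TSS at 71.7, with 31.7 and 43.6. The first overlapped the replicate 1 list alone and the other two overlapped the replicate 2 list alone. Of the 6 midline gene members, that of D held the core ACGTG.

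Regulators of other tissues were also nearest to members, and none of the list counts was tested. The lists share genes, so some members are counted in several lists and the densities are not independent. The midline genes vvl and oc are also in the homeobox list, vvl is in the tracheal list and D in the dorsoventral list. Both tup and Dr are in the homeobox and dorsoventral lists, and SoxN is in the dorsoventral and proneural lists. In the homeobox list of head and neural genes, 7 of 39 were nearest to a member (36.7 members per Mb). Beside vvl these included tup, with its strongest member at 128 (61.8 in replicate 1 and 67.9 in replicate 2), Dr at 108 (48.6 and 61.2), and ems at 86.1 (38.2 and 45.9). The dorsoventral list had 5 of 18 (44.3 per Mb), among them the Sox gene SoxN at 138 (70.0 and 71.2) and ths, which encodes an FGF ligand, at 131 (54.7 and 70.3). The members named for tup, Dr, SoxN and ths overlapped both lists.

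Muscle and heart genes numbered 5 of 20 (46.4 per Mb). The T-box gene Doc2 had a member of 145, with 51.1 in replicate 1 and 90.9 in replicate 2, and the T-box gene mid one of 126, with 61.0 and 66.6. The RNA-binding protein gene how had 108 (36.2 and 67.8) and Doc1 had 89.6 (33.4 and 47.9). Segmentation genes numbered 5 of 26 (17.2 per Mb), among them slp1 at 100.2 (54.4 and 42.0), the zinc finger gene odd at 79.4 (30.1 and 51.2) and the Wnt ligand gene wg at 60.3 (23.0 and 42.0). Only slp1 of these last 3, beside slp2, overlapped both lists.

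Signalling and guidance genes had 2 to 4 genes per list nearest to a member. Of 18 Notch pathway genes 3 were nearest to a member (57.1 members per Mb), the ligand gene Ser at 89.8 (38.0 in replicate 1 and 44.5 in replicate 2), E(spl)m3-HLH at 85.7 (38.4 and 38.2) and the glycosyltransferase gene fng at 56.1 (28.4 and 33.9). Of 15 EGFR pathway genes 2 were (32.0 per Mb), the repressor gene aop at 113 (51.4 and 60.5) and edl at 80.4 (32.3 and 43.0). Of 24 axon guidance genes 4 were (21.8 per Mb), the netrin receptor gene unc-5 at 78.6 (41.0 in replicate 2, with no replicate 1 peak), comm2 at 59.5, caps at 57.6 and comm, the regulator of Robo at the midline, at 52.8 (28.9 and 22.4). Both comm members overlapped neither replicate list.

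Polycomb and trithorax group genes numbered 2 of 19 (106 per Mb, from 3 members in 0.0282 Mb), Psc and its neighbour Su(z)2, whose strongest member had 59.3 (17.6 and 44.1). Proneural and neuroblast genes numbered 2 of 18 (SoxN, and wor at 64.0), at 15.6 members per Mb. Hox genes numbered 1 of 8 (Dfd at 60.4, in neither list), at 14.03 per Mb, and tracheal genes 1 of 13 (vvl), at 13.9 per Mb. Epidermal genes numbered 1 of 9 (shg, the E-cadherin gene, at 79.5), at 41.8 per Mb from 1 member. No gene was nearest to a member in the lists of bHLH-PAS factors (12 genes), neurons (17), glia (12), gut endoderm (10), hemocytes and fat body (13), germline (11), ribosomal proteins (16) and heat shock (10). The share over all protein-coding genes was 2.27%, so 0 is near that share for lists this short. In the same order, the genes nearest to any optimal peak numbered 7, 3, 6, 4, 2, 1, 10 and 5. Several of these lists have little intergenic sequence assigned to them, with 0.0386 Mb for bHLH-PAS factors and 0.00334 Mb for heat shock.

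Members were counted in each gap between genes, without an expectation from gap length. There are far fewer members (447) than gaps, so most gaps had to be empty. Of 7092 gaps with sequence that could hold a member, 321 (4.53%) held at least 1. A lone member was found in 240 gaps and a pair in 54, while 27 gaps held 3 or more, together 99 members (22.1%). The largest number was 7, in the 17.1 kb between the long non-coding RNA genes CR44723 and CR45250 on 3L, with signal values from 8.41 to 105 and 1 member in both lists. The 19.1 kb gap between CR44363 and CG7560 on 3L held 6, from 63.1 to 197, of which 2 were in both lists. The 33.0 kb gap between tRNA:Ile-TAT-1-2 and CG13898 on 3L also held 6, from 49.4 to 142.

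Gaps with 4 members included the 5.81 kb between COX7AL2 and CG31668 on 2L, from 17.4 to 416, and the 75.05 kb between NijA and CG43245 on 3L, from 83.6 to 211. Chosen after its values were seen, the 6.55 kb gap between the non-coding gene CR45737 and sty held 4 members from 121 to 182. The product of sty inhibits receptor tyrosine kinase signalling. The coding TSS nearest to each of these members was that of Ids, at 16384 to 17978 bp. All 4 of these overlapped both replicate lists.

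Dense stretches were located by sliding a 200 kb window, also after the values were seen. The window with the most members, 3L from 11250001 to 11450000, held 29 of its 35 optimal peaks as members, with a median signal value of 70.2. Intergenic sequence away from promoters made up 164 kb of this 200 kb window, so most peaks there could be members by position alone. Of the 29, 7 overlapped both replicate lists and 15 neither, and the replicate lists themselves held 8 intergenic peaks there in replicate 1 and 18 in replicate 2. A window on 2L from 14360001 to 14560000 around noc, a zinc finger gene of head development, held 17, of which 6 overlapped both lists and 5 neither. Next on 3L, from 610001 to 810000 near CG13896 and CG13898, were 15 members, with a maximum of 249 and 6 in both lists. On 3L from 18150001 to 18350000, where the nearest genes included the cell death genes hid and grim, there were 12, and around chinmo, a temporal identity gene of neurons, 10. The strongest chinmo member, 7844 bp from the TSS, had 172, with 54.1 in replicate 1 and 125 in replicate 2.

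Longer gaps held fewer members for their length. The sequence counted includes transposable elements, and no allowance was made for repeats in which reads may not be placed uniquely. Gaps of up to 5 kb had 24.6 members per Mb (exact 95% Poisson interval 20.5 to 29.3), and the density then fell through 17.3, 14.9 and 11.5 to 2.17 per Mb in gaps over 40 kb (1.34 to 3.32). Gaps between divergent genes had 17.7 per Mb (14.8 to 21.0), above 11.0 (8.99 to 13.3) between convergent genes and 11.1 (9.66 to 12.7) between genes in tandem. In their own sequence the members were sparser than intronic and promoter peaks and denser than exonic peaks, at 11.99 per Mb (10.9 to 13.2), against 19.0 (17.8 to 20.2) for intronic, 70.4 (66.3 to 74.8) for promoter and 5.195 for exonic peaks.

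**Figure D2:**
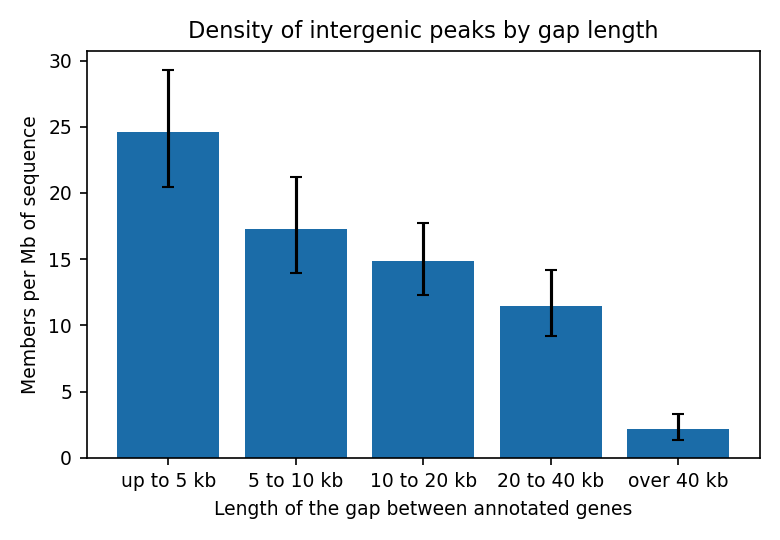
Members per Mb of intergenic sequence away from promoters (y axis) by the length of the gap between annotated genes (x axis), with bars for the density and error bars for exact 95% Poisson intervals. Density was 24.6 per Mb in gaps up to 5 kb and 2.17 in gaps over 40 kb.

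Chromosome arms differed in their share of members, in comparisons chosen after earlier values were known. On X lay 37 members, 8.28% of the class, compared with 21.7% of intronic peaks, a difference of −13.4 percentage points (two-sided Fisher's exact test, adjusted p = 5.12e-10 over 6 arms). X holds 14.5% of the intergenic sequence and 19.3% of the intronic sequence. The X share was 9.76% in replicate 1's list and 7.86% in replicate 2's. Density on X was 6.85 per Mb (4.82 to 9.44), below 10.1 on 2R, 10.4 on 3R, 14.9 on 2L and 15.5 on 3L. In gaps of up to 20 kb it was 11.5 (7.75 to 16.4) on X and 19.4 (17.3 to 21.6) on the autosome arms, and in longer gaps 2.63 (1.06 to 5.42) and 6.93 (5.64 to 8.42).

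Arm 3L held 142 members, 31.8% of the class against 20.2% of intronic peaks, a difference of 11.6 points (Fisher's exact test, adjusted p = 8.18e-06). It was 26.2% in replicate 1's list and 33.6% in replicate 2's, and without replicate 2 the difference was 5.55 points (Fisher's exact test, adjusted p = 0.241). Leaving out the densest 200 kb window brought the 3L share to 27.0%. Arm 2L was higher by 5.86 points (Fisher's exact test, adjusted p = 0.0143), and 3R differed by −5.10 (0.0397). The small arm 4 had 5 members and 0 intronic peaks (0.00533) and 2R differed by −0.08 (1), all by Fisher's exact test. Arm 3L holds 24.6% of the intergenic and 19.7% of the intronic sequence. These shares are 18.7% and 16.3% for 2L, 21.1% and 26.2% for 3R, and 20.5% and 17.5% for 2R. The arm tests compare shares of peaks and do not adjust for shares of sequence.

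**Figure D3:**
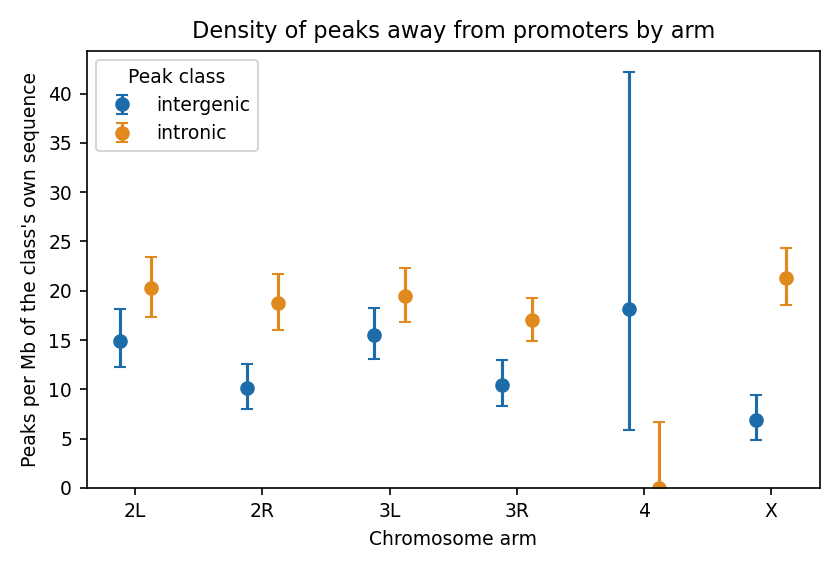
Peaks per Mb of the class's own sequence (y axis) by chromosome arm (x axis) for intergenic members and intronic peaks, with exact 95% Poisson intervals as error bars. Members on X stood at 6.85 per Mb while intronic peaks on X stood at 21.3, and arm 4 rests on 5 members.

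Some members lay at the starts of non-coding genes, which the rule did not consider. Within 500 bp of a non-coding TSS lay 35 members (7.83%), of which 30 were at ncRNA genes, 4 at tRNA genes and 1 at a snoRNA gene, compared with 25 intronic peaks (2.47%). The share of each class's own sequence that lies this near a non-coding TSS was not computed. Intronic summits also lie inside genes, so the shares do not show a preference for non-coding starts. The 35 members included those near Psc and eEF1gamma described above, 146 bp from CR44339 and 124 bp from CR31044. A member of 189 lay only 59 bp from Uhg4, a snoRNA host gene. Of the 35, 9 overlapped both lists (25.7%), against 27.7% of the other 412, and the median signal values were 72.0 and 73.5. Transposable elements held 3 members and pseudogenes 0.

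Summits of members sat in a dip of GC content. Within 50 bp of the summit the mean was 35.7% (SD 10.1, n = 447), compared with 43.6% (SD 9.94) in windows of equal length 300 bp to a randomly chosen side. It was lower at the summit in 307 members and higher in 132. The mean over 365620 windows of 101 bp laid over the intergenic sequence was 40.8%. Stronger members had lower GC content, with 31.8% (SD 7.85) in the strongest 112 and 40.4% (SD 11.1) in the weakest 111. GC content above the median of all optimal peaks was found in 51.01% of members and 44.1% of intronic peaks, a difference of 6.89 points (95% interval 1.34 to 12.4) that missed the threshold (Fisher's exact test, adjusted p = 0.0501). It passed in the conservative list at 8.69 points (0.00962) and in the replicate 1 list alone at 11.2 (0.0394), and it was 4.39 points with a TSS distance of 1000 bp (0.316).

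**Figure D4:**
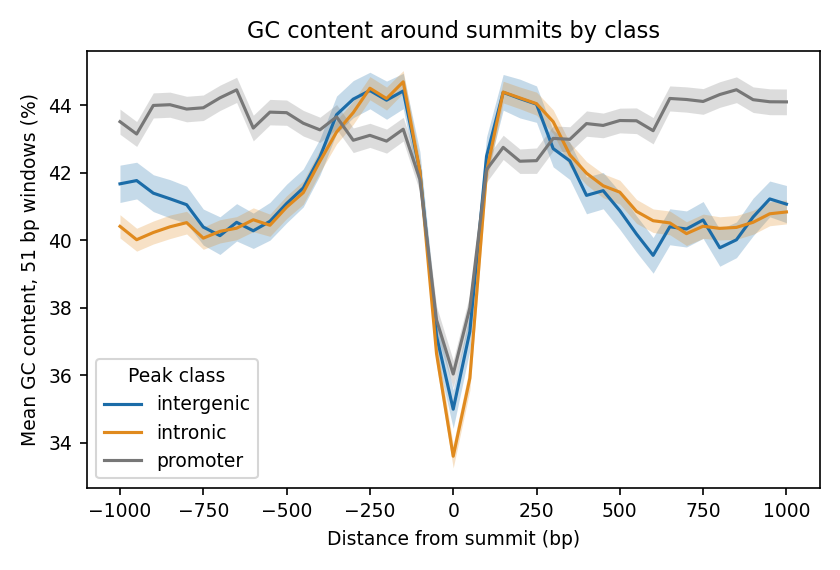
Mean GC content in 51 bp windows (y axis) by distance from the summit in bp (x axis) for intergenic, intronic and promoter peaks, with shading for 1 standard error over peaks. All 3 classes dip at the summit, members to 35.0%, and members lie between 44.2% and 44.4% at 150 to 200 bp on both sides.

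The core of the midline element was not more frequent at member summits than beside them. ACGTG lay within 50 bp of the summit in 30 members (6.71%) and in 37 flank windows (8.28%), a difference of −1.57 points (exact two-sided McNemar test, adjusted p = 0.909 over 20 patterns). Over the intergenic windows it was present in 7.75%, or 6.35% after weighting them to the GC content of the summits, and at intronic summits in 5.24% (Fisher's exact test, adjusted p = 0.912). The 30 members with it had a median signal value of 75.9 and 7 were in both lists (23.3%), compared with 72.8 and 27.8% for the other 417. Among them were the members near eEF1gamma, DNAlig3, ptc and D, of which 3 are printed above. The longer form TACGTG lay in 9 members and 10 flanks (2.01% and 2.24%, exact McNemar test, adjusted p = 1).

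None of the 20 patterns passed the exact McNemar test between summits and flanks (0%), and 3 had an unadjusted p under 0.05. These were CATATG, the Twist E-box, in 5.59% of summits and 2.68% of flanks (exact McNemar test, adjusted p = 0.273), CACACACA, a CA repeat, in 1.34% and 4.47% (0.187), and ACAGTG, a word chosen from earlier results of these data, in 6.94% and 3.58% (0.273). Between members and intronic peaks 0 patterns passed Fisher's exact test (0%) and 1 had an unadjusted p under 0.05, AGGTGGC, the CTCF core, in 1.79% and 0.495% (adjusted p = 0.575). The most common was GAGAG, bound by GAGA factor, in 12.3% of summits and 12.1% of flanks (exact McNemar test, adjusted p = 1). CACACACA was less frequent at summits in the conservative list, with a difference of −4.50 points (exact McNemar test, adjusted p = 0.00132), and in the replicate 2 list alone, with −4.29 (0.00488). It passed in no other setting. The difference was −0.895 points with flanks 1000 bp away (exact McNemar test, adjusted p = 0.944) and −2.24 in windows of 100 bp either side (0.514). In the replicate 1 list it was −1.83 points. GAGAG differed by −11.4 points in the replicate 2 list (exact McNemar test, adjusted p = 0.00332) and by 0.610 in the replicate 1 list (1).

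The other patterns were searched on both strands as well. The palindromic E-box CACGTG, which contains ACGTG, lay in 2 summits and 8 flanks. The homeodomain core TAATTA was in 7.61% of summits and 7.83% of flanks, and the GATA factor word AGATAA in 7.16% and 4.47% (exact McNemar test, adjusted p = 1 and 0.421). The HMG box of Sox and TCF factors, ACAAAG, was in 6.04% and 6.26%, and the Snail E-box CAGGTG in 2.46% and 3.58%. For CGATA, a core shared by BEAF-32 and DREF, the shares were 9.40% and 9.62%. The longer DREF element TATCGATA, which holds that core, was in 2 summits and 0 flanks. The POU octamer ATGCAAAT was in 8 summits and 4 flanks. Zelda's word CAGGTAG was in 1 summit and 3 flanks, and the Su(H) word GTGGGAA was in 1 and 6. Motif 1 of core promoters, GGTCACACT, was in 1 and 1, at the summit near slp2. The B box of RNA polymerase III genes, GTTCGANNC, was in 2 and 2. Grainyhead's AACCGGTT was in 0 and 1. None of these passed the exact McNemar test. A missing word says only that these letters are not in the window.

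**Figure D5:**
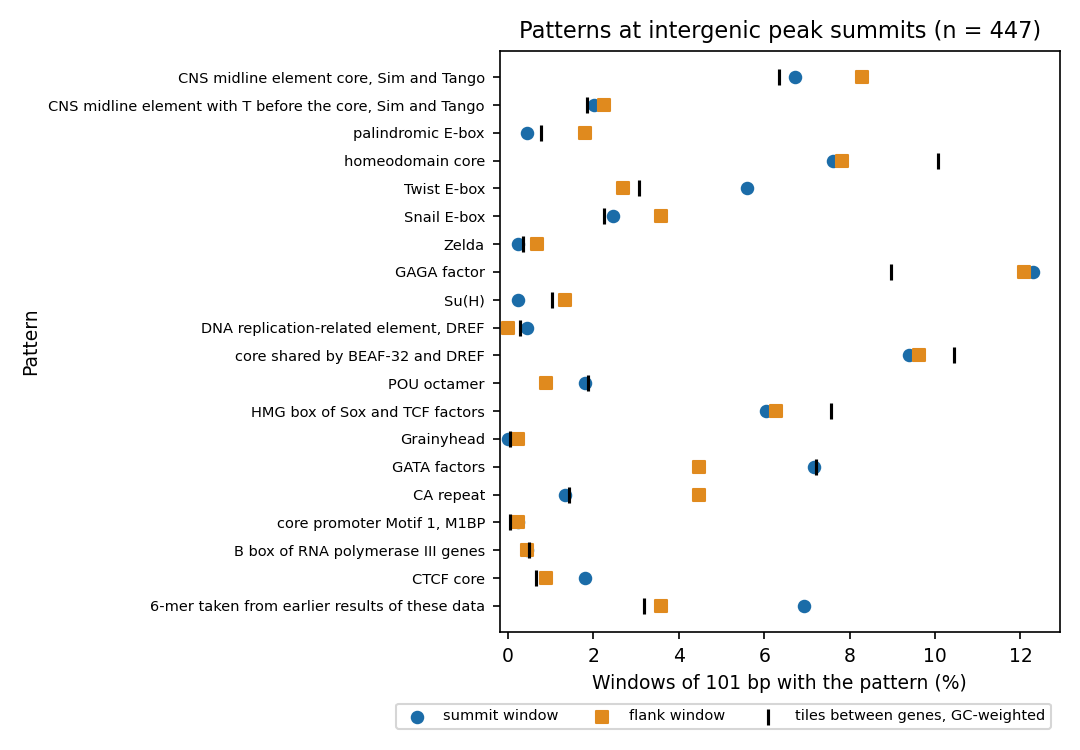
Share of 101 bp windows with each of 20 patterns (x axis, %) at member summits, in the flanks 300 bp away, and in windows over intergenic sequence weighted to the members' GC content. The midline core stood at 6.71%, 8.28% and 6.35%.

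Of all 2080 6-mers, 63 (3.03%) were more frequent at member summits than in flanks and 36 (1.73%) less frequent (exact McNemar test, adjusted p under 0.05). Without replicate 2, among the 164 intergenic peaks of the replicate 1 list, these counts were 6 and 1. With flanks 1000 bp away they were 13 and 3, and mean GC content was 41.7% and 41.1% at 1000 bp on either side of the summit, against 44.2% and 42.7% at 300 bp. Of the 63, 50 were made of 5 or 6 A and T bases, all 36 had at least 3 G or C bases, and none of the 8 words with ACGTG was in either group. AAATAT was in 33.6% of summits and 17.7% of flanks (exact McNemar test, adjusted p = 2.41e-04), ACTACA in 6.94% and 0.671% (4.43e-04), and CCACAC in 1.34% and 8.50% (4.43e-04).

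The 63 words were also set beside intergenic windows weighted to the GC content of the summits. Since the words were chosen for their share at these summits, this is a description and not a further test. The ratio of the summit share to the weighted share ran from 0.876 to 2.58. It was highest for AGTGTA, present in 49 members (10.96%), 4.70% of flanks (adjusted p = 0.0235, exact McNemar test) and 4.26% of weighted windows. It was in 8.01% of intronic, 6.25% of exonic and 6.11% of promoter summits, and the difference between classes was not tested. GTAGTA followed at 5.37% against 2.75% of weighted windows, then ACTGTA at 6.94% against 3.89%. The 49 members with AGTGTA had a median signal value of 69.2 and 11 (22.4%) were in both lists, against 73.6 and 28.1% for the other 398. The strongest of them, near CG7560, had 197 (118 in replicate 1 and 83.6 in replicate 2), and the oc window printed above holds the word once on each strand.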

How the data were processed

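Sim-eGFP chromatin from 2 biological replicates was profiled, with fragments of 200 to 800 bp, per the labels. Of 8 peak lists deposited in dm6 coordinates 6 were used: the optimal, conservative and replicate lists thresholded by irreproducible discovery rate, and each replicate's ranked list. Per the values in the deposited lists, each peak has a score (lowest 830), a signal value, a −log10 q-value and a summit offset. Signal values served to describe and rank peaks. Aligner, caller and settings were not given in the sources used here.

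Members and lists were chosen with earlier results of these data known. Genes came from Ensembl release 115 for BDGP6. Overlap meant at least 1 bp. Named genes were those nearest the 25 strongest members, every midline gene, up to 4 per other list, and the 5 fullest gaps. Tests used scipy 1.17.1 in Python 3.11.15, with numpy 2.4.6, pandas 2.3.3 and matplotlib 3.10.9, and Benjamini-Hochberg adjustment. They compare peaks, not embryos. The 6-mer test was tried on genomic windows at random points between genes, with a word planted in some. Those points were not chosen to have the members' difference in GC content between summit and flank, so that difference was not covered. Alternatives were the conservative and single-replicate lists, TSS distances of 250 and 1000 bp, merged peaks, overlap of at least 50% of the peak, windows of 100 bp either side and flanks 1000 bp away. Added after seeing the data were all arm comparisons, dense windows, non-coding starts and GC-weighted windows.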

Additional observations from a re-analysis of the deposited data

How the results depend on the processing

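Of 62 alternative values, 48 kept their direction and their side of the threshold, or stayed within 1.5 times for counts. Differences near 0 between members and intronic peaks changed sign without passing any test: signal was 0.370 points at a TSS distance of 250 bp and 2.60 at 1000 bp, and replicate support was 0.209 at 1000 bp. GC content passed in the conservative list at 8.69 points and over the lists of 1 replicate ranged from 7.10 to 11.2, but it fell to 4.39 at a TSS distance of 1000 bp, 5.61 at 250 bp and 5.49 in the 100 bp windows (adjusted p = 0.316, 0.102 and 0.157, Fisher's exact test). The 3L difference ranged from 5.55 to 14.05 over those lists. Patterns that passed numbered 1 in the conservative list (CACACACA), 1 in the 100 bp windows (ACAGTG) and 0 to 2 over the lists of 1 replicate. In the 100 bp windows ACAGTG was 9.40 points higher at summits than in flanks (adjusted p = 9.94e-05, exact McNemar test). That word was chosen from earlier results of these data, so its p-value is not an independent test. Between members and intronic peaks it differed by −3.15 points in these windows (Fisher's exact test, adjusted p = 0.662). More frequent 6-mers numbered 109 with the 100 bp windows, 13 with flanks 1000 bp away, and 6 to 67 over the lists of 1 replicate. Less frequent 6-mers numbered 3 with the farther flanks and 1 to 42 over those lists. The cause was not tested. The X difference ranged from −12.1 to −15.8 over its alternatives. Replicates could not be paired between groups, since the series holds 1 group. Depth is unknown, so weak members cannot be set against it.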

Other observations

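Members of very low signal value stood in the optimal list. There were 12 with a signal value under 10, of which 8 overlapped the conservative list and 4 a replicate list. The lowest, 7450 bp from the TSS of CG11550, had 2.04 and a deposited −log10 q-value of 0.0344, while the overlapping ranked peaks had 37.1 in replicate 1 and 84.9 in replicate 2. A neighbouring member 7251 bp from that TSS had 127 and the same ranked values. Those replicate values are therefore not particular to the lowest member. A member 12136 bp from noc had 6.56 and overlapped both replicate lists, and a neighbouring member 11926 bp from noc had 116. Both overlapped the same ranked peaks, at 45.2 in replicate 1 and 67.2 in replicate 2. With overlapping optimal peaks merged to the strongest of each cluster, 430 of the 447 members remained.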
